A study of Mus musculus with 7 samples.

Results

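The genes described here encode Sca-1 (Ly6a), its relatives Ly6c1, Ly6e, Ly6d and Ly6k, and the surface proteins Thy1, Procr and Plaur. They are 8 genes of 25368 tested, read by 9 probes of 39429, and were chosen by name: all probes whose accession maps to one of them were taken. All 9 probes passed the filter on dim signals, since each was well above background in the sample channel on all 7 arrays, and none of their 63 spots was flagged or saturated.

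Gene expression was measured on 2-colour arrays in ILC2s, the innate lymphocytes that lack antigen receptors and secrete the cytokines of type 2 immunity. The 4 wild-type (Gfi1+/+) samples each pooled 3 mice, and the 3 knockout (Gfi1GFP/GFP) samples each pooled 6 mice in which a GFP cassette sits in the Gfi1 locus, removes the function of this transcriptional repressor and reports its promoter. All mice, controls included, had received IL-25 daily for 4 days, and Lin-, Sca-1+, ICOS+, CD127+ and c-Kit+ cells were sorted from their mesenteric lymph nodes on day 5 and grown for 6 days with IL-2 (50 ng/ml), IL-7 (10 ng/ml) and IL-25 (50 ng/ml). The labels give neither the age nor the strain background of the mice. Levels are given as log2 ratios of sample (red) over a common mouse reference RNA (green). Where stated, they are the log2 signal of the sample channel alone, taken after a normalization that used both channels. A difference is the knockout mean less the wild-type mean.

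Ly6 proteins are small, cysteine-rich proteins with a three-finger fold, most of them held on the outer face of the membrane by a glycosylphosphatidylinositol (GPI) lipid anchor, and many of their genes lie side by side on mouse chromosome 15. Sca-1 and Thy1 are used as surface markers to sort ILC2s, and Sca-1, Ly6C and Ly6E are known to respond to interferons. Plaur, the urokinase receptor, carries the same fold in several copies, whereas Thy1 is an immunoglobulin-fold protein and Procr, the endothelial protein C receptor, has an MHC-like fold, and both share the GPI anchor.

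The arrays were of similar quality. Between 67.4% and 80.9% of probes were well above background in the sample channel, and log ratios correlated across probes at 0.979 to 0.989 among wild-type arrays, 0.968 to 0.979 among knockout arrays and 0.942 to 0.969 between groups, where probes are no independent replicates. The Gfi1 probe read 4.28 ± 0.02 (SD, n = 3) in the knockout and 2.02 ± 0.23 (SD, n = 4) in the wild type. Its place relative to the cassette is not known here, so it checks no label. Arrays lay on 3 slides, of which slide 1 held 1 array of each group, slide 2 held 1 wild-type and 2 knockout arrays and slide 3 only wild-type arrays. Of the defining ILC2 markers, 14 of 15 were above background on all arrays.

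Among the 8 genes, Ly6c1, Ly6a and Ly6e were lower in knockout ILC2s, Procr was higher, and Thy1, Ly6d, Ly6k and Plaur did not pass the test. The falls were 2.22-fold, 1.65-fold and 1.5-fold and the rise was 1.9-fold in the log ratio. The Ly6c1 fall rests on the brighter of its 2 probes: the other differed by 0.10 (limma adjusted p over probes 0.85), the mean of both gave -0.53 (limma adjusted p = 0.0541), and the sample channel of the brighter probe fell 1.6-fold. In limma with an adjusted p threshold of 0.05, 1 member was called higher and 3 lower. Over all tested genes 7.49% were called, 3.27% higher and 4.22% lower. The groups did not overlap in the 4 called members, as in 18.3% of all tested genes. Since RNA came from bulk cultures, fewer cells carrying a transcript and less transcript per cell cannot be told apart.

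**Figure D1:**
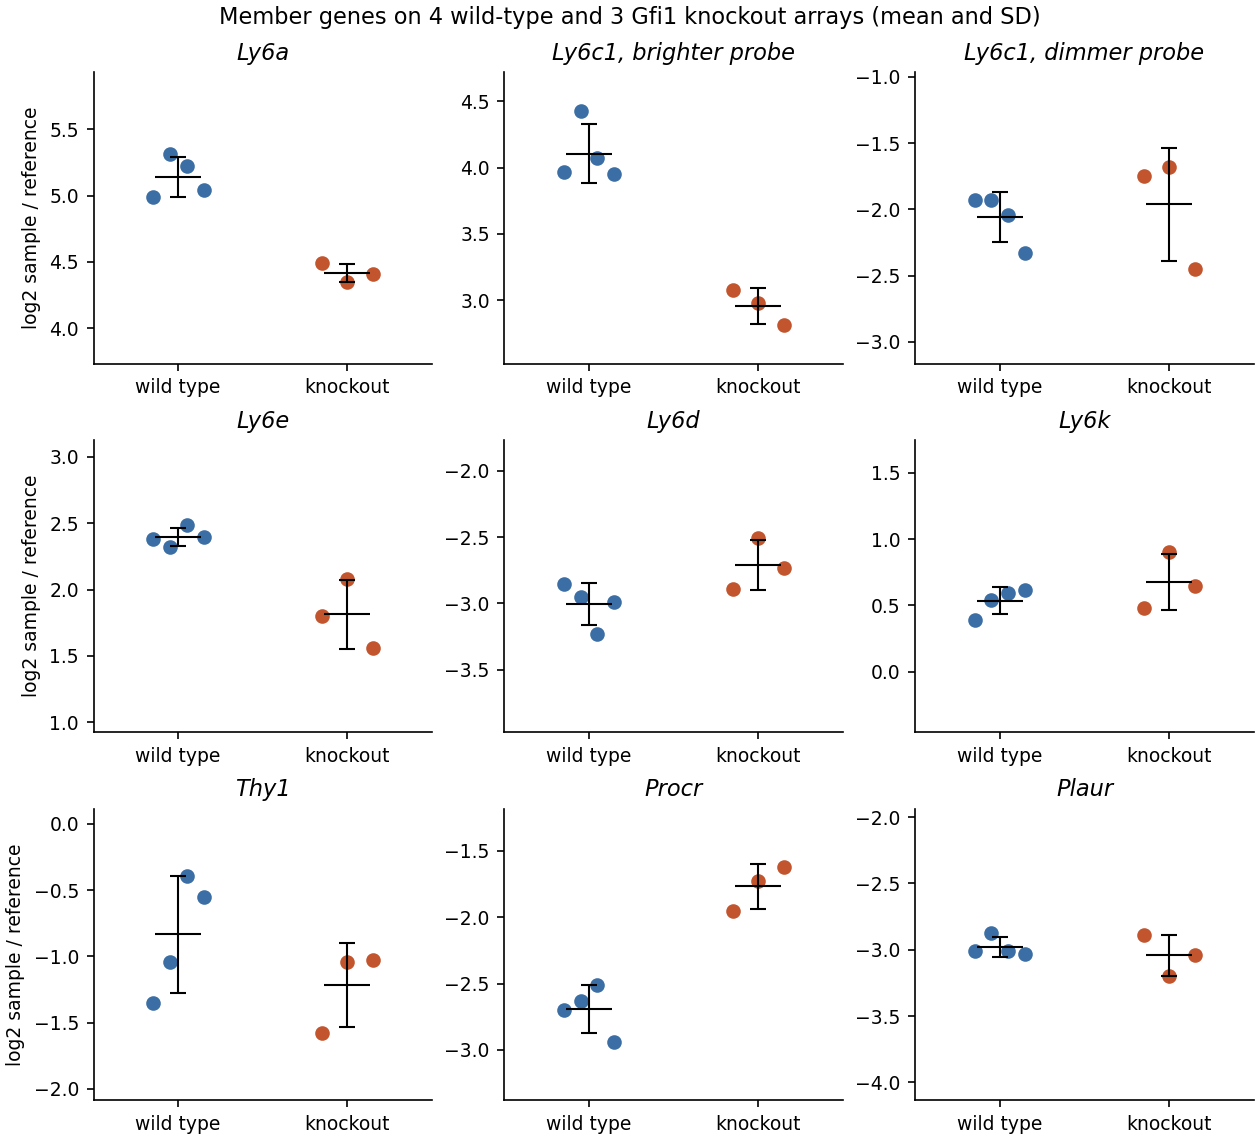
Log2 ratio of sample over reference (y axis) for each probe of the 8 genes in wild-type (blue, n = 4) and knockout (red, n = 3) arrays. Points are arrays, bars are means with SD, and every panel spans the same number of log2 units; the groups are apart for Ly6a, the brighter Ly6c1 probe, Ly6e and Procr and overlap in the other panels.

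Ly6a encodes Sca-1, one of the antigens on which the cells had been sorted before culture. Its log ratio was 4.99, 5.31, 5.22 and 5.04 on wild-type arrays 1 to 4 and 4.49, 4.35 and 4.41 on knockout arrays 1 to 3. All 3 knockout arrays were below all 4 wild-type arrays, and the knockout arrays lay close together. The means were 5.14 ± 0.15 (SD, n = 4) and 4.42 ± 0.07 (SD, n = 3), a log2 difference of -0.72 ± 0.10 (SE, limma adjusted p = 0.00245). The transcript thus stayed far above the reference RNA in both groups.

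The sample channel alone gave the same direction for Ly6a. The scanner's processed red signal, quantile-scaled without that normalization, differed by -0.65 (limma adjusted p = 0.0085). After normalization and scaling, the log2 signal of Ly6a was 16.87, 16.72, 17.01 and 16.92 in the wild type and 16.07, 15.99 and 15.94 in the knockout, again without overlap. The difference of -0.88 is a 1.84-fold lower signal (limma adjusted p = 0.00105), beside 6.54% of all tested genes called in this channel, 3.63% lower and 2.92% higher. Slide by slide, the log ratio differed by -0.55 (slide 1) and -0.61 (slide 2). A fit that held slide as a block gave -0.58 (limma adjusted p = 0.0404). The other sort genes did not pass the test in the log ratio, at -0.11 for Icos, -0.23 for Il7r, which encodes CD127, and 0.62 for Kit (limma adjusted p = 0.7, 0.55 and 0.0864). In the sample channel alone Icos differed by -0.68 (limma adjusted p = 0.0141).

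Ly6c1 encodes an Ly6C antigen, best known on monocytes, endothelial cells and memory T cells. It was read by 2 probes with the same accession, and these disagreed. On the brighter probe, which stands for the gene, the log ratio was 3.97, 4.43, 4.07 and 3.95 in the wild type and 3.08, 2.98 and 2.81 in the knockout. The knockout arrays were again all below the wild-type arrays. The means of 4.11 ± 0.22 (SD, n = 4) and 2.96 ± 0.14 (SD, n = 3) differ by -1.15 ± 0.13 (SE, limma adjusted p = 0.000833), the largest difference among the 8 genes under this choice of probe.

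On the dimmer Ly6c1 probe the log ratio was -1.93, -1.93, -2.04 and -2.33 in the wild type and -1.75, -1.68 and -2.45 in the knockout. Knockout arrays 1 and 2 were above every wild-type array and knockout array 3 was below them all. The difference was 0.10 ± 0.18 (SE, limma adjusted p over probes 0.85), so no fall was detected with this probe. Counted by probe, 4 of the 9 were called, against 7.46% of all tested probes. With it as the gene's probe, 2 members were called lower. Ly6 genes near Ly6c1 have closely similar sequences, the files used here give no probe sequence, and how far either probe also binds transcripts of its neighbours was not tested.

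The size of the Ly6c1 fall on the brighter probe also depended on the channel. The sample signal fell by 0.68 on the log2 scale (1.6-fold, limma adjusted p = 0.0038), from 16.91 ± 0.07 (SD, n = 4) to 16.23 ± 0.14 (SD, n = 3). The scanner's processed red signal, quantile-scaled, differed by -0.48 (limma adjusted p = 0.0244). The signal of the reference RNA, which was the same material on every array, differed by 0.47 on the knockout arrays, which did not pass the test (limma adjusted p = 0.595, beside 0.0394% of all tested genes called in this channel), at 12.80 ± 0.22 (SD, n = 4) and 13.27 ± 0.03 (SD, n = 3). Slide by slide, the log ratio differed by -0.87 (slide 1) and -1.08 (slide 2), and the slide block gave -0.99 (limma adjusted p = 0.0227).

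**Figure D2:**
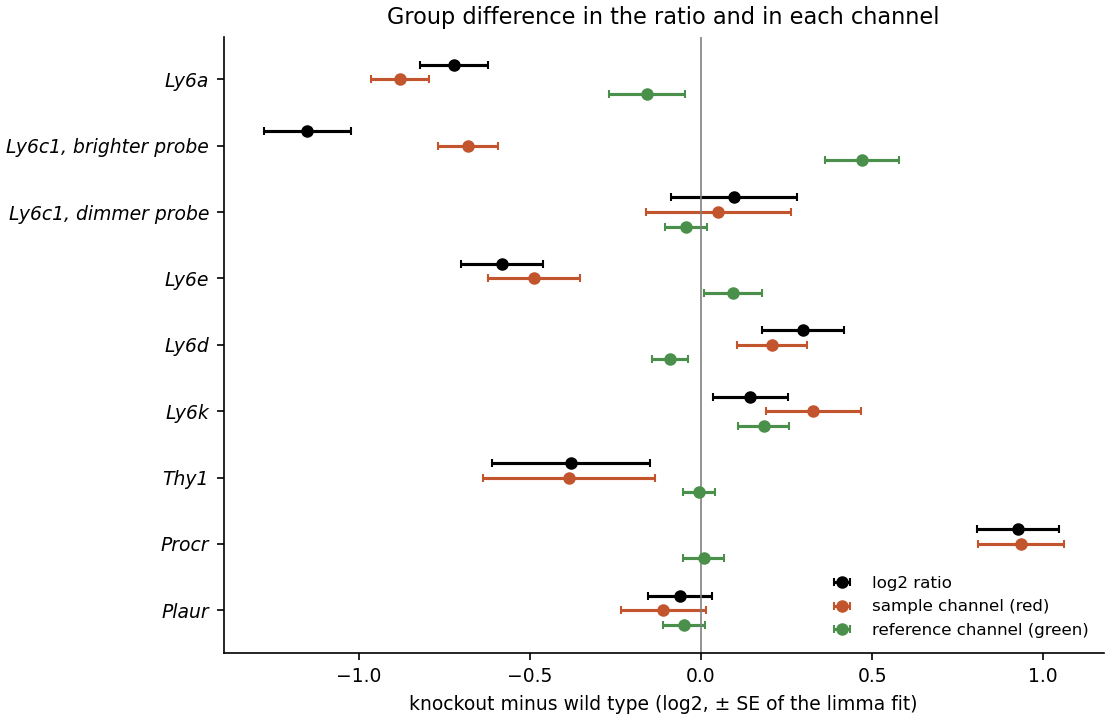
Knockout minus wild-type difference (x axis, log2, ± SE of the limma fit) for each probe, in the log ratio (black), the sample channel (red) and the reference channel (green). The sample and ratio differences lie close for Procr (0.93 and 0.93) and Thy1 (-0.39 and -0.38), and stand apart for the brighter Ly6c1 probe (-0.68 and -1.15), whose reference signal differs by 0.47.

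Ly6e encodes a widely expressed Ly6 protein also called Sca-2 and TSA-1, known from thymocytes. Its log ratio was 2.38, 2.32, 2.49 and 2.40 in the wild type and 1.80, 2.08 and 1.56 in the knockout. The groups did not overlap, and the knockout arrays were more scattered than the wild-type arrays. The means were 2.40 ± 0.07 (SD, n = 4) and 1.82 ± 0.26 (SD, n = 3), a difference of -0.58 ± 0.12 (SE, limma adjusted p = 0.0179). This call was the least firm of the 4: it was lost in the sample channel alone (-0.49, limma adjusted p = 0.0751) and with slide as a block (-0.57, limma adjusted p = 0.199), without wild-type array 4 (limma adjusted p = 0.0526) or without wild-type array 4 and knockout array 3 together (-0.45, limma adjusted p = 0.0878). Within slides 1 and 2 the difference was -0.60 and -0.55.

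Ly6d, a Ly6 gene used to mark early B lineage cells and keratinocytes, was below the reference in both groups. It read -2.85, -2.95, -3.23 and -2.99 in the wild type and -2.89, -2.51 and -2.73 in the knockout, so that knockout array 1 lay within the wild-type range. The difference was 0.30 ± 0.12 (SE, limma adjusted p = 0.201), with a 95% interval for this gene alone of 0.03 to 0.57. In limma none of 8 B cell markers was called (0 at an unadjusted p under 0.05), beside 7.49% of all tested genes called, so few calls would be looked for among 8. Their summed sample intensity, not scaled between arrays, ran from 23560 to 29650 in the wild type and from 20850 to 28510 in the knockout.

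Ly6k, a Ly6 gene known mainly from testis, had a log ratio of 0.39, 0.54, 0.59 and 0.62 in the wild type and 0.48, 0.90 and 0.65 in the knockout. The groups overlapped, and the difference was 0.14 ± 0.11 (SE, limma adjusted p = 0.557; 95% interval -0.10 to 0.39). In the sample channel the 3 knockout values (7.82, 8.33 and 7.79) all exceeded the 4 wild-type values (7.56 to 7.77), with a difference of 0.33 that did not pass the test (limma adjusted p = 0.238).

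Thy1 encodes CD90, the GPI-anchored protein of T cells, ILCs and some fibroblasts. It was the most variable of the 8 within a group: its log ratio was -1.35, -1.04, -0.39 and -0.55 in the wild type and -1.58, -1.04 and -1.03 in the knockout. Wild-type arrays 3 and 4 were high, whereas wild-type arrays 1 and 2 were within the range of the knockout arrays. The means were -0.83 ± 0.44 (SD, n = 4) and -1.21 ± 0.31 (SD, n = 3), and the difference of -0.38 ± 0.23 (SE) did not pass the test (limma adjusted p = 0.436). Its 95% interval of -0.90 to 0.14 holds a fall as large as that of Ly6a as well as no change. The difference took opposite signs within slides, -1.02 in slide 1 and 0.32 in slide 2.

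Procr was the member that rose. It encodes the receptor of protein C on endothelium, a protein found also on haematopoietic stem cells and on some T helper 17 cells. The log ratio was -2.70, -2.63, -2.51 and -2.94 in the wild type and -1.95, -1.73 and -1.62 in the knockout, with every knockout array above every wild-type array. The means of -2.70 ± 0.18 (SD, n = 4) and -1.77 ± 0.17 (SD, n = 3) differ by 0.93 ± 0.12 (SE, limma adjusted p = 0.00191).

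In the sample channel Procr read from 8.90 to 9.21 in the wild type and 9.78, 10.00 and 10.24 in the knockout. This is a 1.91-fold higher signal (limma adjusted p = 0.00475), and the reference signal differed by 0.01. The scanner's processed red signal, quantile-scaled, differed by 0.98 (limma adjusted p = 0.00651). Slide by slide, its log ratio differed by 0.99 (slide 1) and 1.02 (slide 2), and the slide block gave 1.01 (limma adjusted p = 0.00682). Of 10 endothelial markers, 5 were above background on all 7 arrays and 3 (Emcn, Tek and Tie1) on none. In limma none of the 6 tested was called, beside 7.49% of all tested genes (1 higher and 2 lower at an unadjusted p under 0.05). The summed sample intensity of all 10, not scaled between arrays, ran from 6374 to 7511 in the wild type and from 6516 to 7364 in the knockout.

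Plaur encodes the urokinase receptor, which binds the protease urokinase at the cell surface. Its log ratio was -3.01, -2.87, -3.01 and -3.03 in the wild type and -2.89, -3.20 and -3.04 in the knockout. The groups overlapped throughout, and the difference of -0.06 ± 0.09 (SE, limma adjusted p = 0.805) had a 95% interval of -0.27 to 0.15.

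Compared as profiles over the 7 arrays, each centred on its own mean, Ly6a lay near both other falling genes. The root mean square difference was 0.21 between Ly6a and Ly6e and 0.23 between Ly6a and Ly6c1 on the log2 scale. Ly6c1 and Ly6e were farther apart, at 0.35, which is no nearer than Ly6e was to the uncalled Plaur (0.34) and Thy1 (0.35). The smallest of all pairs was 0.18 between Ly6d and Ly6k. The largest was 1.05, between Ly6c1 and Procr. Outside the 8 genes, the profile nearest to Ly6a was that of Gm6498 (0.05), followed by Insrr and Anxa4 (each 0.07). Nearest to Ly6c1 were Impa2 (0.09), Ier3 and Bnip3 (each 0.11), and nearest to Ly6e were Slc12a4 (0.04), Sidt2 and Zyx (each 0.05). Nearest to Procr were Mast4 (0.06), Iftap (0.07) and Matn2 (0.10), although 2 further Mast4 probes differed by only 0.10 and -0.03. Each of these profiles over 7 arrays includes the difference between the groups. They are profiles of the log ratio: Gm6498 differed by -0.81 there and by -0.31 in the sample channel (limma adjusted p = 0.29). Bnip3, Sidt2 and Zyx were not called in that channel either (limma adjusted p = 0.0837, 0.0534 and 0.0642). With slide as a block Anxa4, Insrr, Bnip3, Slc12a4, Sidt2 and Zyx were not called (limma adjusted p from 0.0557 to 0.294), and the other neighbours were.

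The 5 Ly6 members lie in the Ly6 cluster of chromosome 15, and their neighbours, a set chosen after the values were seen, were examined in order. From Psca to Gpihbp1 the RefSeq table (GRCm38.p6) holds 45 genes, of which 20 were on the array by a matched accession and 18 were tested. In limma 5 of these were lower and none higher (2 higher at an unadjusted p under 0.05), beside 4.22% of all tested genes called lower, and 3 of the 5 were Ly6e, Ly6a and Ly6c1 themselves. The other falls were Ly6f, next to the Ly6g genes, at -0.57 ± 0.09 (SE, limma adjusted p = 0.00515), and Slurp1, a secreted Ly6 protein, at -0.42 ± 0.10 (SE, limma adjusted p = 0.0275), the latter named after its value was seen. With slide as a block neither was called (limma adjusted p = 0.101 and 0.288), and of the 7 fits with 1 array removed, 1 called Slurp1. Ly6i, between Ly6e and Ly6a, was not called at -0.06 (limma adjusted p = 0.717). Ly6c2, Ly6g and Ly6a2 were not analysed here. How far the probes of Ly6a, Ly6c1 and Ly6f bind each other's transcripts was not tested, so these falls are not shown to be separate.

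**Figure D3:**
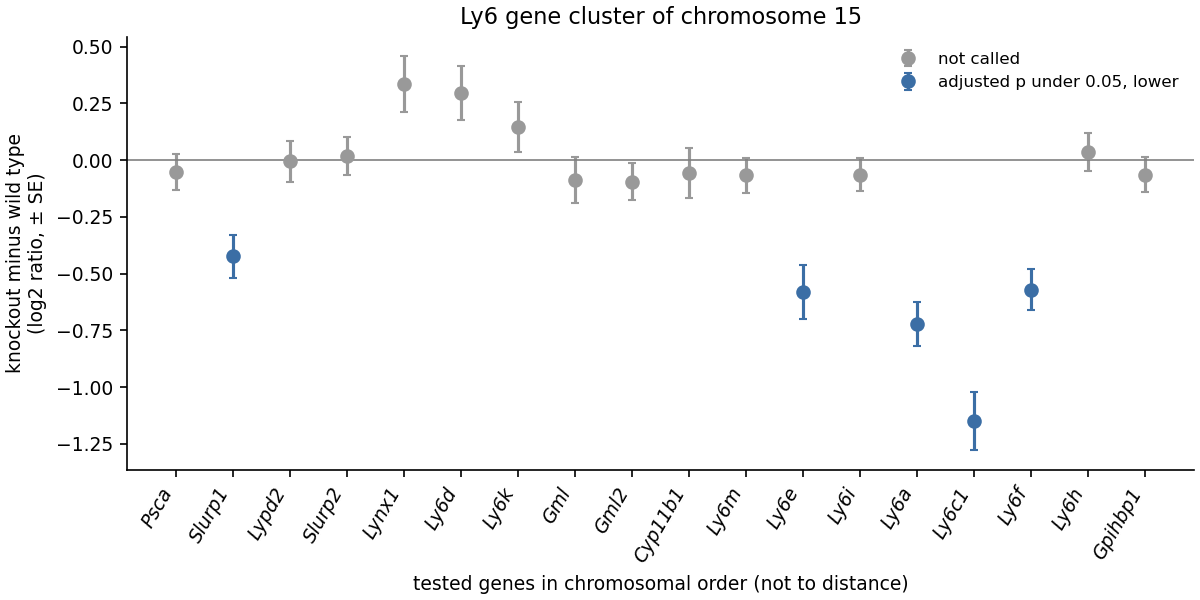
Knockout minus wild-type difference in the log ratio (y axis, log2, ± SE of the limma fit) for the 18 tested genes of the chromosome 15 cluster, placed in chromosomal order without regard to distance. The called genes (blue) are Slurp1, Ly6e, Ly6a, Ly6c1 and Ly6f, all lower. Ly6i, between Ly6e and Ly6a, lies at -0.06. Binding of a probe to transcripts of similar neighbours was not tested.

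Promoter windows of RefSeq (GRCm38.p6, from 250 bases before to 50 bases after a start site) were given for 3 of the 8 genes. Those of Ly6c1 and Procr are shown because these members moved in opposite directions. Capitals mark the Gfi1 core motif AATC read on either strand.
Ly6c1 (chr15:75048788-75049087, minus strand): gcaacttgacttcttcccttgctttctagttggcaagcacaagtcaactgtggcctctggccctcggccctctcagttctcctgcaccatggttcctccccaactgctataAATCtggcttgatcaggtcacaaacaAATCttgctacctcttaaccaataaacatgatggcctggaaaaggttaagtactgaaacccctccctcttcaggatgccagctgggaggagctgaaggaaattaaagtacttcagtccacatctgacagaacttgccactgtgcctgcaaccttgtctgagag
Procr (chr2:155750967-155751266, plus strand): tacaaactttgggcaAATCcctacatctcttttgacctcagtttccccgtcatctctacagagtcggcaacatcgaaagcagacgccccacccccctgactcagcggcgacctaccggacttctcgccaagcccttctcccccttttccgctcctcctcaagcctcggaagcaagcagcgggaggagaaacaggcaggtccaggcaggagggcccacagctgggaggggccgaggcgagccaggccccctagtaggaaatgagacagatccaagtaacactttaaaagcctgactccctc

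The Ly6c1 window held 2 matches to the core, at -139 and -113 from the start site, and the Procr window held 1, at -235. A second Ly6c1 window, for another start site, held 1 match and the Plaur window none. Of 32851 promoter windows of this length 73.1% held at least 1 match and 44.5% at least 2, so most windows hold such letters. The interferon response element (3.44% of windows, both strands) and the STAT motif TTCNNNGAA (8.3% of windows) had no match in the 4 windows of these genes. A match is a description of letters and no evidence of binding.

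Other genes of the three-finger (Ly6/uPAR) fold, a list that includes receptors of the TGF-beta family, moved in both directions. Of 33 tested, 2 rose and 4 fell, which is 18.2% against 7.49% of all tested genes, and the median difference was -0.04 against -0.01 over all tested genes. Bmpr2 and Tgfbr2, receptors of bone morphogenetic proteins and TGF-beta, fell by 0.68 and 0.97 on the log2 scale (limma adjusted p = 0.00107 and 0.00266), and a second Tgfbr2 probe stood at -0.86. Ly6g5b rose by 1.52 and Acvr1, an activin-type receptor, by 0.40 (limma adjusted p = 0.0116 and 0.0299), while a second Acvr1 probe stood at 0.08. With slide as a block Bmpr2 alone of the list was called, while calls over all tested genes fell from 1900 to 478. With 1 array removed Acvr1 was called in 3 of 7 fits. The list held 1 called riser without wild-type array 1, 2 or 4 or knockout array 2. Over all tested genes the risers then numbered 709, 566, 527 and 528, against 829 with all arrays.

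The enzymes that make the GPI anchor and attach it to proteins mostly did not pass the test. Of 31 tested genes, 1 fell and none rose in limma (at an unadjusted p under 0.05, 4 were lower and 3 higher). This is 3.23% called against 7.49% of all tested genes, with a median of -0.01. The fall was in Pigx, a subunit of the first mannosyltransferase of the pathway, by 0.55 on the log2 scale (limma adjusted p = 0.00428), and by 0.48 on its second probe. With slide as a block its adjusted p in limma was 0.065.

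Other GPI-anchored proteins of leukocytes moved both ways. Of 36 tested, 5 rose and 5 fell, which is 27.8% against 7.49% of all tested genes, with a median of -0.02. One riser, Gpc4, was above background on 0 wild-type and 3 knockout arrays and so passed the filter only through the group where it is high, as was seen after its values. Among the 29 genes above background on all 7 arrays, 4 rose and 5 fell. The count fell to 1 higher and 2 lower without wild-type array 4 and likewise without knockout array 2, to 3 and 3 without wild-type array 3, to 4 and 3 without knockout array 1 and to 3 and 5 without knockout array 3. With no flagged spot left out it was 2 higher and 5 lower. Cd24a, the mucin-like heat stable antigen, rose 3.7-fold (limma adjusted p = 0.00413), Efna5, an ephrin ligand, rose 1.72-fold and Raet1e, an NKG2D ligand, rose 1.31-fold. Sema7a, a GPI-anchored semaphorin, fell 1.63-fold (limma adjusted p = 0.000938), the metalloproteinase Mmp25 fell 1.79-fold and Reck, an inhibitor of such proteases, fell 1.65-fold, although a second Reck probe stood at -0.01. With slide as a block 3 members of the list were called higher and 2 lower, and Efna5, Raet1e and Reck were not called (limma adjusted p = 0.191, 0.266 and 0.348). With 1 array removed these 3 were called in 5, 4 and 4 of 7 fits. Calls over all tested genes fell as well, from 1900 to 478 with slide as a block. They were 1265 without wild-type array 4, 1262 without knockout array 2 and 1366 without wild-type array 3. Without knockout array 1 or 3 they were 1898 and 1570, and 1776 with no flagged spot left out.

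The partners of Plaur and of Procr were tested as lists of their own. In the urokinase and plasmin system 1 of 16 tested genes rose and 2 fell, which is 18.8% against 7.49% of all tested genes, with a median of -0.12: Serpinb6b, a serine protease inhibitor, rose by 0.64, and Anxa2, a surface receptor of plasminogen, and Igf2r, which binds the urokinase receptor, fell by 0.61 and 0.70 on the log2 scale (limma adjusted p = 0.0162, 0.0103 and 0.0283). Anxa2 was not called in the sample channel (-0.26, limma adjusted p = 0.27). Among 10 tested genes of protein C and thrombin signalling, 1 fell and none rose in limma (at an unadjusted p under 0.05, 1 was lower and 1 higher). This is 10% called against 7.49% of all tested genes. The fall was in Tfpi, an inhibitor of tissue factor, by 0.37 on the log2 scale (limma adjusted p = 0.0255), with other probes at -0.26 and -0.24. With slide as a block Serpinb6b, Anxa2, Igf2r and Tfpi were not called (limma adjusted p = 0.156, 0.17, 0.0953 and 0.227), where calls over all tested genes fell from 1900 to 478. Of the 7 fits with 1 array removed, 5 called Serpinb6b, 7 Anxa2, 2 Igf2r and 1 Tfpi. The rise in the urokinase list was lost without wild-type array 4 or knockout array 2, and 1 gene of it was lower without any 1 of the wild-type arrays or knockout array 2. In these fits 1262 to 1598 genes were called in all, against 1900 with all arrays.

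Markers of other cells that carry these surface proteins were examined on the same arrays. In limma none of 11 tested T cell markers, 6 NK cell markers and 8 myeloid markers was called, beside 7.49% of all tested genes. At an unadjusted p under 0.05 in limma, 3, 2 and 1 of them differed, all higher. The medians were 0.19, 0.32 and 0.05, and 2, 0 and 2 of the differences were negative. Summed sample intensities of T cell and myeloid markers, not scaled between arrays and with untested genes included, overlapped between the groups. They ran from 19890 to 42440 in the wild type and 25330 to 43550 in the knockout for T cell markers. For myeloid markers they ran from 47960 to 82940 in the wild type and 59630 to 71720 in the knockout. Of 8 stromal markers, a list that also holds Thy1, Pdgfrb was called higher (12.5% against 7.49% of all tested genes). Of 15 ILC2 markers 2 rose (Ptgdr2 and Il17rb) and 4 fell (Il1rl1, Arg1, Gata3 and Areg). This is 40% against 7.49% of all tested genes. Ptgdr2 was above background on 2 wild-type and 3 knockout arrays, so it passed the filter only with the knockout arrays, where it is high. All marker genes of this paragraph were named after their values were seen. The summed epithelial signal was higher in the knockout (4365 to 5767 in the wild type, 6023 to 6949 in the knockout). Of 6 tested epithelial markers only Krt18 was called (0.35, limma adjusted p = 0.028), 4 differences were negative and the median was -0.02. Of the 7 epithelial genes on the array, 5 were above background on all 7 arrays and 1 (Cdh1) on none. The summed red cell signal was lower (832.8 to 1322 in the wild type, 547.1 to 725.7 in the knockout). Of 2 tested red cell markers only Hba-a1 was called (-0.85, limma adjusted p = 0.0142). These lists had 16.7% and 50% called, against 7.49% of all tested genes. In the mast cell list 2 of 6 fell, Hdc (-0.36) and Cpa3 (-0.51), which is 33.3% against 7.49% of all tested genes. Of the 9 mast cell genes on the array, 5 were above background on all 7 arrays and 2 (Fcer1a and Ms4a2) on none. The part of other cells in the member differences was not tested beyond these values.

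**Figure D4:**
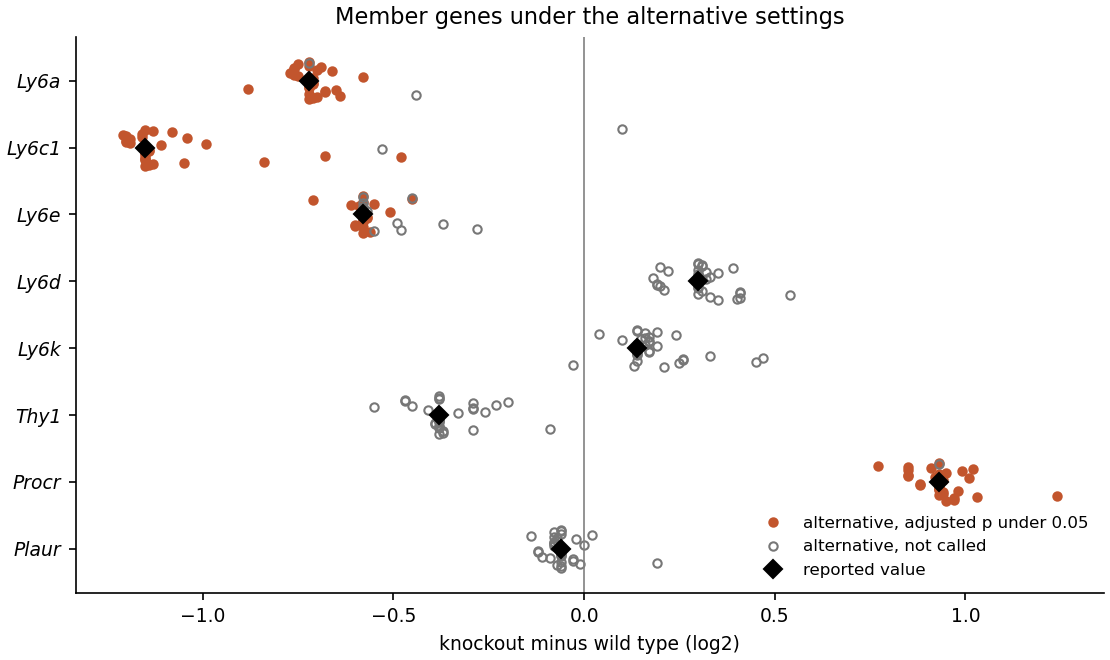
Knockout minus wild-type difference (x axis, log2) of each of the 8 genes as reported (black diamond) and under 33 alternative settings with a test (filled red, adjusted p under 0.05 in limma; open grey, not called). Ly6a and Procr stay on their side of 0 under all of these settings, from -0.88 to -0.44 and from 0.77 to 1.24, while Ly6c1 reaches 0.10 when its dimmer probe is used.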

How the data were processed

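Per the file headers, the authors' scanner files were written by Agilent Feature Extraction 11.0.1.1, while the submitters' processing notes name 10.7.3.1. They give median spot and background intensity on a linear scale and a log10 ratio of red over green. The deposited series table holds log2 ratios that matched the scanner's to within 0.0005, with column medians of 0.163 to 0.254. Per the labels, Cy5 carried the sample and Cy3 the reference on every array, with no dye swap.

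Spots with feature outlier or non-uniform background flags (2597) were left out. Median signals were corrected by normexp (offset 50), loess-normalized within each array (controls at weight 0) and averaged per probe in limma 3.58.1 (R 4.3.3). The offset draws ratios of dim probes towards 0. For single channels, Aquantile scaling followed. Summed marker intensities are the scanner's processed sample signals, not scaled between arrays. They cover every gene of a list on the array, tested or not. Probes were named by accession through a RefSeq table (GRCm38.p6): 26581 of 39429 matched 1 gene, and the rest kept their accession. A gene was tested if its red signal exceeded background on 3 arrays or more and 2 or more values remained per group (30315 probes, 25368 genes), the brightest tested probe standing for a gene. Groups were compared with lmFit and eBayes, no block, Benjamini-Hochberg over all tested genes, threshold 0.05. Intervals are for 1 gene, unadjusted. The array design is on mm9, and its probe positions were not used. The RefSeq table's gene coordinates served to choose and order the genes of the chromosome 15 cluster. The fit was tested on simulated data.

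Per the labels every sample was a separate pool of mice. The number of arrays limits the precision. The replicate numbers give no stated pairing, and the main fit did not pair the arrays. Deviations of same-numbered arrays correlated at 0.04, 0.24 and 0.02. Whether the numbers mark pairs was not tested beyond these values and the replicate block. Named genes were the 8 members with every probe, Gfi1, the sort genes, up to 3 called genes of smallest p in each direction of each list, and the 3 nearest profiles of each called member. Members and lists were chosen with earlier results of these data known. Alternatives covered background, normalization, channel, filter, flags, probe choice, variance model, slide, replicate number, left-out arrays and a minimum change. Figures were drawn with matplotlib 3.10.9. The result of 1 marker list is not reported here.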

Additional observations from a re-analysis of the deposited data

Results flagged for a closer look

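Plaur on wild-type array 2 stood apart from the other wild-type arrays, at a log ratio of -2.87 against -3.01 for the nearest of the other 3. Its gap was large for the range of the group by Dixon's criterion. Of 18 such checks over the 9 probes in the log ratio and the sample channel, 1 passed the critical value, and chance flags about 1 in 20.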

How the results depend on the processing

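The 4 calls were recomputed under 33 alternatives with a test, 1 of them (the dimmer Ly6c1 probe) chosen after seeing the data. Adjusted p values stayed under 0.05 in limma in 32 of them for Procr, 31 each for Ly6a and Ly6c1 and 22 for Ly6e. All 31 for Ly6c1 used its brighter probe. The call was lost wherever the dimmer probe entered, in the mean of both (-0.53, limma adjusted p = 0.0541) and alone (limma adjusted p = 0.85). A minimum log2 change of 0.5 left 0 members higher and 1 lower (209 genes in all), and no normalization left 1 lower, moved the median of all genes to 0.21 and Ly6a to an adjusted p of 0.0713. Calls over all genes numbered 1900, and 894 with local background subtraction, 478 with slide as a block, 1129 without wild-type array 4 and knockout array 3, and 1262 to 1898 when single arrays were left out, least without knockout array 2 or wild-type array 4. Of the calls 43.6% were higher, against 55.5% with median centring and 84.0% with no normalization. With the replicate number as a block 1082 genes were called, against 1265 on the same arrays without the block, and Ly6e was not called in either (adjusted p = 0.0948 and 0.0526). Ly6e was also lost with local background subtraction (0.0782), median centring (0.0776) and the quantile-scaled sample channel (0.219). Direction turned for Ly6c1 with its dimmer probe (0.10), for Ly6k with local background subtraction (-0.03) and for Plaur with no normalization (0.19) and on leaving out single arrays (-0.14 to 0.02). The causes were not tested. The 33 alternatives are not independent of each other. Aquantile changes no ratio by construction, and replicates 1 to 3 without a block are the same fit as leaving out wild-type array 4. The series table repeats the scanner's ratio, and the choice among probes leaves the values of members with 1 probe unchanged. Depth does not apply to arrays, and all member probes were above background.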

Other observations

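Interferon-induced genes, the set to which Sca-1, Ly6C and Ly6E are known to belong, moved in both directions. Of 37 tested, 7 fell and 2 rose, which is 24.3% called against 7.49% of all tested genes (4.22% lower), with a median difference of -0.17 against -0.01 over all tested genes. Oas1a, a sensor enzyme of double-stranded RNA, fell 2.52-fold (limma adjusted p = 0.00025; second probe -0.94), Ddx58, which encodes RIG-I, fell 1.71-fold (0.00269; second probe -0.46) and Ifi27 fell 1.78-fold (0.00469). Gbp4 and Gbp6, guanylate-binding proteins known as targets of interferon gamma, rose 1.77-fold and 1.92-fold (limma adjusted p = 0.00994 and 0.0281), and a second Gbp6 probe stood at 0.77 and was not called. With 1 array removed the list held 5 to 9 called lower and 1 or 2 higher (1 on removing any of wild-type arrays 1 and 2 and knockout arrays 1 and 3), and Gbp6 was called in 3 of 7 fits and the other 4 genes named in all 7. With slide as a block 2 of the 37 were called, both lower, Oas1a (limma adjusted p = 0.00962) and Ddx58 (0.0254). Over all 25368 tested genes that block left 478 called, against 1900 without it. With 1 array removed, 734 to 1016 of all tested genes were called lower and 527 to 882 higher.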
